A study of Craterostigma plantagineum with 12 samples.

Results

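Dehydrin 1 (Cp_V2_contig_15111, 587 bases) and Dehydrin DHN3 (Cp_V2_contig_22485, 413 bases) are 2 of the 48045 contigs of a transcriptome assembly of Craterostigma plantagineum, a resurrection plant whose leaves survive drying. They were chosen by their contig IDs, with earlier results of these data known, and followed through a cycle of drying and rehydration. Their high places and shares among the dehydrins are therefore not independent of that choice. Per the deposited annotation, the best hits of the pair are other dehydrins of the same species, dehydrin 26651 for dehydrin 1 and dehydrin 05381 for DHN3. The files name no isoform or chromosome for either.

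Dehydrins are a group of late embryogenesis abundant (LEA) proteins, a class named for its accumulation in maturing seeds. They are hydrophilic, lack a fixed fold in solution, and carry lysine-rich K-segments that can form a helix when they meet membranes or partner proteins. In many plants their transcripts accumulate with drought, cold, salt or abscisic acid (ABA), the hormone of water deficit, and the proteins are thought to protect membranes and enzymes as cells lose water. In Craterostigma, dehydrins are among the proteins that build up in leaves as they desiccate.

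Leaves were taken in 4 states, with 3 libraries each. The states were fresh (100% relative water content, RWC), leaves of plants dried in pots for 3 to 4 days to about 60% RWC, leaves of plants dried for 15 days to 2% RWC, and leaves of desiccated plants that had been submerged in water for 24 h. All plants were propagated vegetatively and grew under a 14 h light and 8 h dark cycle at a relative humidity of 60%. Leaves of 6 to 9 plants were pooled, and the pools of different libraries were independent. Water content and days without water changed together, so they cannot be told apart. No watered plants of matching age are among the 12 libraries.

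Each library held between 14784251 reads (fresh library 3) and 21271288 reads (library 2 at 2% RWC). Fresh leaves varied most. The biological coefficient of variation was 0.537 among fresh libraries, 0.143 at 60% RWC, 0.136 at 2% RWC and 0.265 after rehydration. Correlations of log2 CPM (counts scaled for library size) between fresh libraries ran between 0.832 and 0.866, below those within any other state (0.943 to 0.980). As leaf markers, 39 contigs described as Rubisco small chain, Rubisco activase or chlorophyll a-b binding protein were followed. Each of these had reads in every state. So did all 10 contigs of a vascular list and all 6 of a guard cell list, so the presence of reads does not test the leaf label. The share of reads from the 39 contigs was 3.37 to 3.39% in the fresh libraries, 0.491 to 0.561% at 60% RWC, 0.354 to 0.475% at 2% RWC and 1.80 to 2.61% in rehydrated leaves.

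Both dehydrins were low in fresh leaves, reached their highest level at 60% RWC, remained high at 2% RWC, and were low again, though above fresh leaves, after 24 h in water. In RPKM, a read count divided by contig length and library total, dehydrin 1 measured 64.3, 45.7 and 78.1 in the 3 fresh libraries, 8251, 8966 and 8670 at 60% RWC, 4482, 4802 and 5168 at 2% RWC, and 203, 258 and 280 after rehydration. No library of a state overlapped with a library of another state. The order of the states was therefore the same in whichever libraries were compared: 60%, 2%, rehydrated, fresh.

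DHN3 measured 167, 65.4 and 73.5 RPKM in the fresh libraries, 12066, 13730 and 10282 RPKM at 60% RWC, 5648, 6286 and 5283 RPKM at 2% RWC, and 495, 513 and 362 RPKM after rehydration. These states did not overlap either. Fresh library 1 stood 2.55 times above the lowest fresh library for DHN3, while for dehydrin 1 the highest fresh library was 1.71 times the lowest. Within the dried states the libraries lay closer together: the coefficient of variation of dehydrin 1 was 7.12% at 2% RWC and 4.16% at 60% RWC, and that of DHN3 was 8.84% at 2% RWC and 14.3% at 60% RWC.

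**Figure D1:**
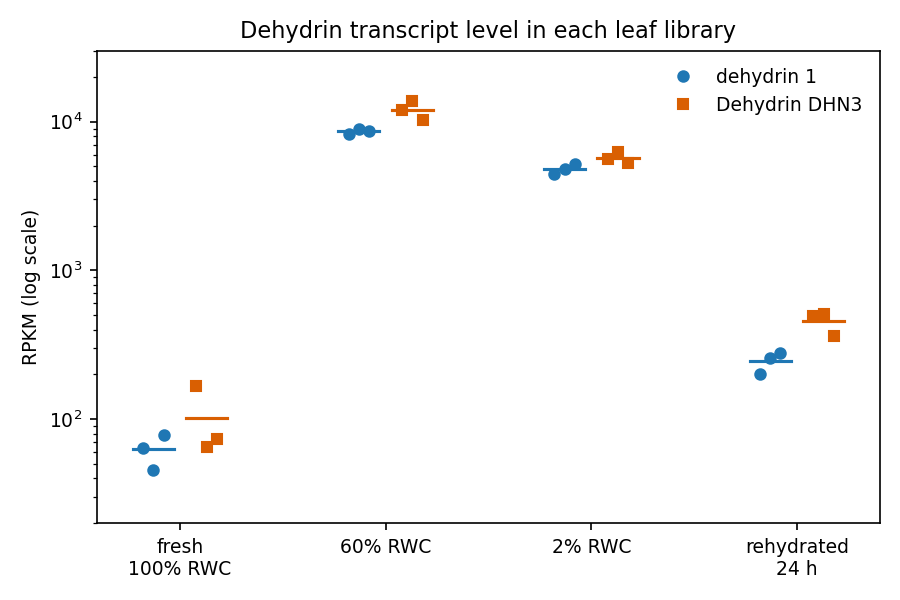
RPKM of dehydrin 1 (circles) and Dehydrin DHN3 (squares) on a log scale in each of the 12 libraries, by state in the order of the cycle, with a bar at the mean of 3 libraries. Both stand at no more than 167 RPKM in every fresh library, at 4482 RPKM or more in every library at 60% and 2% RWC, and between 203 and 513 RPKM after rehydration.

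As means, dehydrin 1 stood at 62.7 ± 16.3, 8629 ± 359, 4818 ± 343 and 247 ± 39.6 RPKM in fresh, 60%, 2% and rehydrated leaves (SD, n = 3 each). DHN3 stood at 102 ± 56.2, 12026 ± 1724, 5739 ± 508 and 457 ± 82.8 RPKM in the same order. Ranked by mean RPKM among all contigs, DHN3 was at place 1607 in the fresh state, 4 at 60% RWC, 7 at 2% RWC and 173 in the rehydrated state. Dehydrin 1 was at places 3064, 5, 9 and 405. The contig at place 1 in both dried states was Cp_V2_contig_4317, described as a desiccation-related protein, with 40294 ± 2030 RPKM at 2% RWC and 63273 ± 8170 RPKM at 60% RWC. At 60% RWC the contig just above DHN3 was Cp_V2_contig_1109, a gamma-tonoplast intrinsic protein (a water channel of the vacuole membrane), with 12434 ± 166 RPKM, which lay within the range of the DHN3 libraries. Just below dehydrin 1 came Cp_V2_contig_6178, described as embryonic protein DC-8-like, a LEA protein, with 8489 ± 361 RPKM, within 1 SD of dehydrin 1. At 2% RWC a contig for DSP-22, a desiccation stress protein of chloroplasts, lay between the pair with 5171 ± 1530 RPKM (Cp_V2_contig_36065).

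A test across all 4 states at once, edgeR's quasi-likelihood F test on the deposited read counts with Benjamini-Hochberg adjustment over 46494 contigs, called both dehydrins (adjusted p = 5.1e-08 for dehydrin 1 and 5.74e-07 for DHN3). This test called 71.6% of all contigs, so being called in it sets neither dehydrin apart. The same fit gave the comparisons of single states that follow, each called at an adjusted p below 0.05.

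Partial drying gave the largest change of the cycle for both dehydrins. Dehydrin 1 averaged 8629 RPKM at 60% RWC and 62.7 RPKM in fresh leaves, a ratio of means of 137.6. Its log2 fold change was 7.19 ± 0.312 (SE, adjusted p = 7.55e-08, edgeR's quasi-likelihood test). DHN3 averaged 12026 RPKM at 60% RWC and 102 RPKM in fresh leaves, a ratio of 118.1 and a log2 fold change of 6.94 ± 0.464 (adjusted p = 1.2e-06, same test). Without fresh library 1 the log2 fold change of DHN3 was 7.61, above the 7.28 of dehydrin 1 in the same fit, so the order of the pair by fold rested on that library. For both, all 3 libraries at 60% RWC lay above all 3 fresh libraries. Of all contigs tested, 15.6% were called higher and 23.3% lower at 60% RWC than in fresh leaves, so a call is common here. By size of fold, dehydrin 1 was at place 223 from the top and DHN3 at place 248 of 46494. In these bulk libraries of whole leaves, more cells that hold a transcript and more of it per cell cannot be told apart.

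The values in fresh leaves rest on fewer reads. Dehydrin 1 had 80498 to 86522 reads in the libraries at 60% RWC and 453 to 678 reads in the fresh libraries, and DHN3 had 449 to 1194 reads in fresh leaves. The reads carry no molecular identifiers, so read counts bound counting error only. The authors' deposited table gives a fold of 137.62 for dehydrin 1 and 118.12 for DHN3 over the states, with an analysis of variance p of 2.83e-10 and 6.25e-07.

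In fully desiccated leaves both dehydrins were still far above their fresh level. Dehydrin 1 averaged 4818 RPKM at 2% RWC, 76.8 times the 62.7 RPKM of fresh leaves, and its log2 fold change was 6.46 ± 0.302 (adjusted p = 7.47e-08, edgeR's quasi-likelihood test). DHN3 averaged 5739 RPKM at 2% RWC, 56.4 times the 102 RPKM of fresh leaves, with a log2 fold change of 5.98 ± 0.444 (adjusted p = 1.18e-06, same test), or 6.66 without fresh library 1. Both rose, against a background of 26.0% of contigs called higher and 34.9% called lower at 2% RWC than in fresh leaves. By fold, dehydrin 1 was at place 230 and DHN3 at place 296 from the top.

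Between 60% and 2% RWC the mean level of each dehydrin was lower at the drier state, by less than the preceding change. Dehydrin 1 at 2% RWC stood at 55.8% of its mean at 60% RWC and fell by 0.72 on the log2 scale (SE 0.239, adjusted p = 0.0287, edgeR's quasi-likelihood test). That call did not hold without any 1 of the 6 libraries compared, where the adjusted p ran between 0.0539 (without library 3 at 2% RWC) and 0.0993 (without library 1 at 2% RWC). DHN3 at 2% RWC stood at 47.7% of its mean at 60% RWC, with a log2 fold change of -0.95 (SE 0.36, normal 95% interval -1.66 to -0.25). Its adjusted p was 0.05002, at the edge of the threshold. It ran between 0.0659 (without library 3 at 60% RWC) and 0.138 (without library 2 at 60% RWC) without any 1 of the 6 libraries compared, and between 0.0574 and 0.0667 without any 1 rehydrated library. It was below 0.05 without fresh library 1 (0.00214), fresh library 2 (0.015) or fresh library 3 (0.0487), and without the last the log2 fold change itself was -0.87. With the 6 libraries of these states alone, the adjusted p was 4.56e-05 for dehydrin 1 and 9.77e-06 for DHN3. For both, all 3 libraries at 2% RWC lay below all 3 at 60% RWC. In this comparison 19.5% of contigs were called higher and 25.0% lower at 2% RWC, and the dehydrins were not among the large folds, at places 15059 (dehydrin 1) and 12552 (DHN3) from the lowest.

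**Figure D2:**
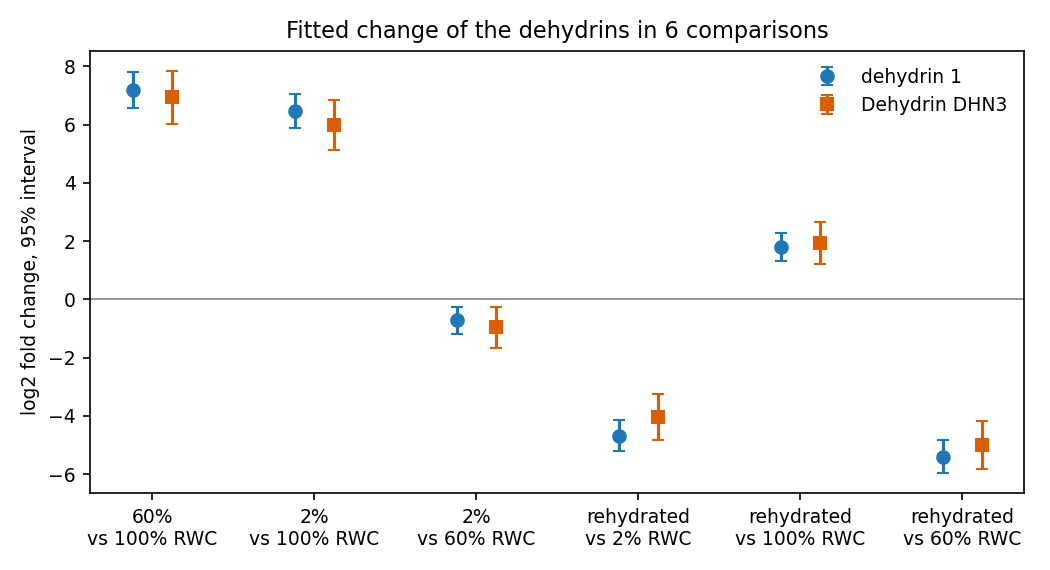
Fitted log2 fold change of dehydrin 1 (circles) and Dehydrin DHN3 (squares) in the 6 comparisons of states. Each comparison is written with the state on top of the fold first. Bars are normal 95% intervals computed from the SE. The folds of dehydrin 1 and DHN3 are 7.19 and 6.94 for 60% RWC against fresh leaves, -0.72 and -0.95 for 2% against 60% RWC, and -4.68 and -4.05 for rehydrated leaves against 2% RWC.

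After 24 h of submersion both transcripts stood at a far lower level relative to the other reads of their libraries. Absolute amounts cannot be read from these values. Rehydrated leaves averaged 247 RPKM of dehydrin 1, which is 5.13% of the 4818 RPKM at 2% RWC, and the transcript fell by 4.68 on the log2 scale (SE 0.278, adjusted p = 4.97e-07, edgeR's quasi-likelihood test). DHN3 averaged 457 RPKM in rehydrated leaves, or 7.96% of the 5739 RPKM at 2% RWC, and fell by 4.05 (SE 0.404, adjusted p = 9.92e-06, same test). Among all contigs 31.1% were called higher and 25.4% lower in rehydrated than in desiccated leaves. Counted from the lowest fold, dehydrin 1 was at place 239 and DHN3 at place 454.

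Against leaves at 60% RWC, rehydrated leaves held 2.86% of the dehydrin 1 level and 3.8% of the DHN3 level. Dehydrin 1 fell by 5.40 on the log2 scale (SE 0.287, adjusted p = 6.66e-07) and DHN3 by 5.0 (SE 0.423, adjusted p = 7.95e-06, both edgeR). Here 19.6% of contigs were called higher and 17.5% lower in rehydrated leaves. Dehydrin 1 was at place 75 and DHN3 at place 151 from the lowest fold. In none of the other comparisons did either dehydrin rank this close to an end of the list.

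The return was not complete at 24 h. Dehydrin 1 averaged 247 RPKM in rehydrated leaves and 62.7 RPKM in fresh leaves, a ratio of 3.94, with a log2 fold change of 1.79 ± 0.246 (adjusted p = 0.00151, edgeR's quasi-likelihood test). DHN3 averaged 457 RPKM in rehydrated leaves and 102 RPKM in fresh leaves, a ratio of 4.48, with a log2 fold change of 1.94 ± 0.371 (adjusted p = 0.0097, same test), or 2.61 without fresh library 1. Every rehydrated library lay above every fresh library for both. Few contigs passed here, 3.71% higher and 5.69% lower in rehydrated leaves, and the dehydrins were at places 912 (dehydrin 1) and 789 (DHN3) from the highest fold. The number of contigs called, 4373, was 11219 without fresh library 2, and 2203, 1522 and 2808 without rehydrated library 1, 2 or 3. In a fit of the 6 fresh and rehydrated libraries alone, neither was called (adjusted p = 0.0731 for dehydrin 1 and 0.131 for DHN3), with log2 fold changes of 1.81 and 1.95.

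The scaling of libraries moved the median of all contigs in the comparisons with rehydrated leaves. The median log2 fold for rehydrated against 2% RWC was 0.51 with library totals alone and 0.13 with TMM scaling, and for rehydrated against 60% RWC it was 0.31 with library totals alone and 0.04 with TMM. With library totals alone, 70.2% of the calls for rehydrated against 2% RWC were higher, compared with 55.1% with TMM. The shares for rehydrated against 60% RWC were 69.5% and 52.8%, and for rehydrated against fresh leaves 54.1% and 39.5%, in the same order. Under library totals alone the dehydrins kept their directions, with log2 folds of -4.29 (dehydrin 1) and -3.65 (DHN3) for rehydrated against 2% RWC.

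As a share of all reads, the pair made up 0.00789 ± 0.00264% in the fresh state, 1.00 ± 0.0818% at 60% RWC, 0.520 ± 0.0226% at 2% RWC and 0.0333 ± 0.00264% in the rehydrated state. About 1 read in 100 thus came from these contigs at 60% RWC. Read shares are not corrected for length: at 60% RWC dehydrin 1 took 0.507% of reads and DHN3 0.497%, although DHN3, the shorter contig, had the higher RPKM.

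The level of DHN3 per length was above that of dehydrin 1 in 11 of 12 libraries. The exception was fresh library 3. The log2 ratio of dehydrin 1 to DHN3, both in RPKM, was -1.37, -0.52 and 0.09 in the fresh libraries, -0.55, -0.61 and -0.25 at 60% RWC, -0.33, -0.39 and -0.03 at 2% RWC, and -1.29, -0.99 and -0.37 after rehydration. The states overlapped in this ratio, and its means were -0.60 ± 0.734, -0.47 ± 0.197, -0.25 ± 0.192 and -0.88 ± 0.468 (SD, n = 3 each). An exact permutation test of the one-way F statistic over all 369600 assignments of the libraries to the states gave p = 0.435, so a change in their proportion through the cycle was not detected.

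Between neighbouring states no difference in the ratio was detected either, at SEs that leave room for one. The log2 ratio differed by 0.13 (SE 0.439) between 60% RWC and fresh leaves, by 0.22 (SE 0.159) between 2% and 60% RWC, and by -0.63 (SE 0.292) between rehydrated and 2% RWC leaves. Exact two-sided permutation tests gave p = 0.9, 0.3 and 0.2, where 0.1 is the smallest p that 3 against 3 libraries allow. The sign of the comparison of 60% RWC with fresh leaves rested on fresh library 1, without which the difference was -0.255.

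**Figure D3:**
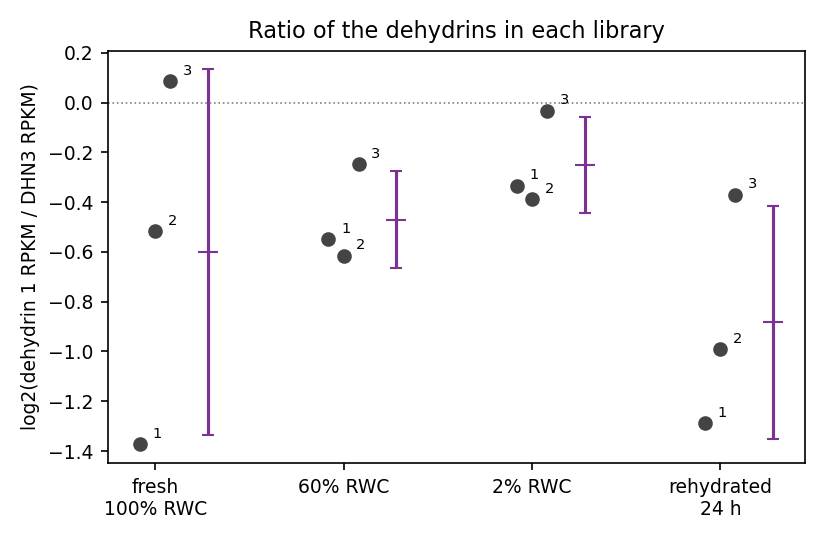
The log2 ratio of dehydrin 1 RPKM to DHN3 RPKM in each library (points, numbered by library within the state) with the mean and SD of 3 libraries beside them (bars). Values overlap between all 4 states, and 11 of 12 lie below 0, where DHN3 is the higher.

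The annotation named 10 further dehydrin contigs, found by words in the description or best hit, and each passed the low-count filter. At 60% RWC 5 of these 10 were higher and 3 lower than in fresh leaves, at 2% RWC 5 were higher and 5 lower, and after rehydration 1 was higher and 3 lower than at 2% RWC. Their median log2 folds in these comparisons were 3.34, 0.31 and 0.18, where those of all contigs were -0.06, -0.22 and 0.13. Of all contigs, 15.6% were higher and 23.3% lower in the first of these comparisons, 26.0% and 34.9% in the second, and 31.1% and 25.4% in the third. At 2% against 60% RWC none was higher and 5 were lower, where 19.5% of all contigs were higher and 25.0% lower. In rehydrated against fresh leaves 3 were higher and 4 lower, where 3.71% of all contigs were higher and 5.69% lower. The number called was 4 in place of 7 without rehydrated library 1 and again without rehydrated library 2 (3 higher and 1 lower each). Those fits called 2203 of 46945 and 1522 of 46977 contigs. In a fit of the 6 fresh and rehydrated libraries alone 1 was called, where 380 of 45058 contigs were. The pair took 3.46 ± 0.623% of all dehydrin reads in the fresh state, 47.7 ± 0.883% at 60% RWC, 58.9 ± 0.503% at 2% RWC and 18.7 ± 2.69% in the rehydrated state. The whole dehydrin group of 12 contigs took 0.227, 2.10, 0.882 and 0.180% of all reads in those states.

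**Figure D4:**
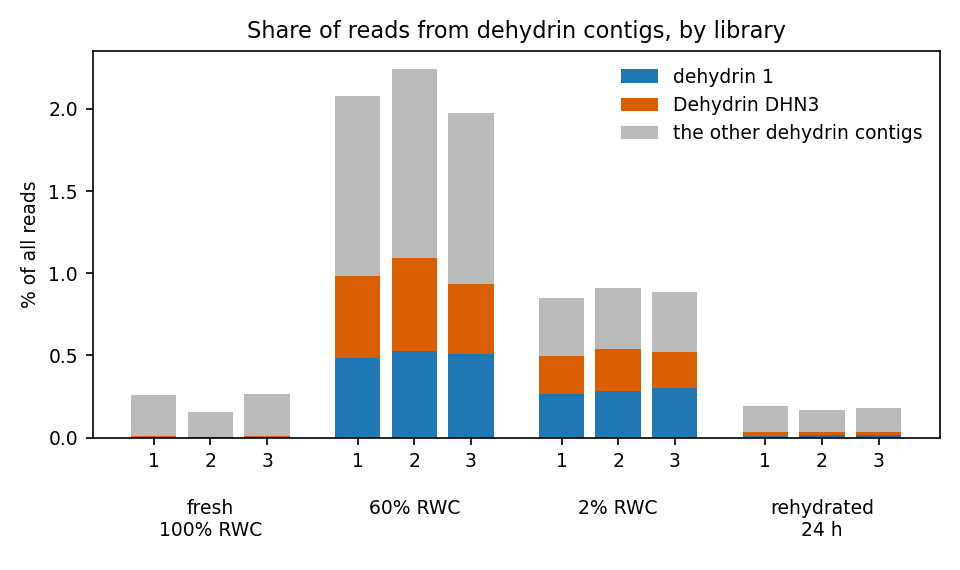
Share of all reads in each of the 12 libraries from dehydrin 1, Dehydrin DHN3 and the other dehydrin contigs, as stacked bars by state in the order of the cycle. The total averages 0.882% at 2% RWC, where the pair makes up 58.9% of it, and 2.10% at 60% RWC, where the pair makes up 47.7%.

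A set of 3 contigs shared the shape of the pair: low in fresh leaves, highest at 60% RWC, still high at 2% RWC. Cp_V2_contig_3217, described as dehydrin 26651, averaged 74.6, 4732, 2709 and 146 RPKM through fresh, 60%, 2% and rehydrated leaves. Cp_V2_contig_10660, also described as dehydrin 1 but with the desiccation-related protein PCC6-19 of the species as its best hit, averaged 22.7, 3663, 2100 and 66.1 RPKM. Cp_V2_contig_29428, described as dehydrin 00250, averaged 10.7, 2473, 1254 and 67.8 RPKM. All 3 were called higher at 60% RWC and at 2% RWC than in fresh leaves, and lower after rehydration than at 2% RWC. In rehydrated against fresh leaves, where the pair was called higher, so was Cp_V2_contig_29428 (log2 fold change 2.49, adjusted p = 1.6e-05, edgeR). Cp_V2_contig_3217 (0.78, adjusted p = 0.1154) and Cp_V2_contig_10660 (1.28, adjusted p = 0.1725, both edgeR) were not called there. The fold of Cp_V2_contig_29428 was the largest of the 12 dehydrins for 60% RWC against fresh leaves, with a log2 fold change of 7.95 ± 0.22 (adjusted p = 7.67e-09, edgeR's quasi-likelihood test).

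Cp_V2_contig_3217 shares its best hit with dehydrin 1, and part of the reads of each contig were not unique to it. The counts do not show with which contigs these reads are shared. Reads not unique to a contig made up 1119 to 3835 of the reads of dehydrin 1 in the 6 dried libraries and 565 to 1916 of those of Cp_V2_contig_3217. Of the reads of dehydrin 1, 95.6 to 98.7% were unique in each library. Whether the deposited total counts a shared read once or in every contig it matches is not given in the sources used here, and how far the sequences of the 2 contigs overlap was not measured, so the counts and read shares of both are uncertain to the extent of the shared reads. At least 99.9% of the reads of DHN3 were unique in every library.

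Other dehydrins followed different courses. Both contigs described as dehydrin 23749 were called higher at 60% RWC than in fresh leaves, and at 2% RWC they were well below their level at 60% RWC but still called higher than in fresh leaves, with log2 fold changes of 1.85 (Cp_V2_contig_19242, adjusted p = 0.00101) and 2.55 (Cp_V2_contig_6006, adjusted p = 0.000148, both edgeR). Cp_V2_contig_19242 averaged 183 RPKM at 2% RWC and 3143 RPKM at 60% RWC (log2 fold change -3.98 ± 0.393, adjusted p = 2.33e-05, edgeR). Cp_V2_contig_6006 averaged 186 RPKM at 2% RWC and 1701 RPKM at 60% RWC (log2 fold change -3.08 ± 0.383, adjusted p = 0.000103, edgeR). Cp_V2_contig_802, dehydrin 24924, was the most abundant dehydrin of fresh leaves. Its means were 2381, 2952, 59.7 and 1254 RPKM through the cycle. It was not called at 60% RWC against fresh leaves (log2 fold change 0.39, adjusted p = 0.255, edgeR), and it fell by 5.13 on the log2 scale at 2% RWC against fresh leaves (adjusted p = 3.05e-07, edgeR) and rose by 4.01 after rehydration against 2% RWC (adjusted p = 1.39e-06, edgeR), both opposite in direction to the pair.

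Of the remaining dehydrins, Cp_V2_contig_7405, described as ERD14 (a name from Arabidopsis, early responsive to dehydration), averaged 343, 96.0, 85.0 and 131 RPKM through the cycle. Cp_V2_contig_445, described as dehydrin, averaged 168, 42.9, 40.7 and 58.4 RPKM. Both were called lower at 60% and at 2% RWC than in fresh leaves. Cp_V2_contig_3885 (dehydrin-like protein) and Cp_V2_contig_34844 (ERD10-like), which were named after their values were seen, averaged at most 116 RPKM in any state. Only 38.3 to 70.4% of the reads of Cp_V2_contig_445 and 47.5 to 79.2% of those of Cp_V2_contig_3885 were unique, so the values of these contigs are uncertain.

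**Figure D5:**
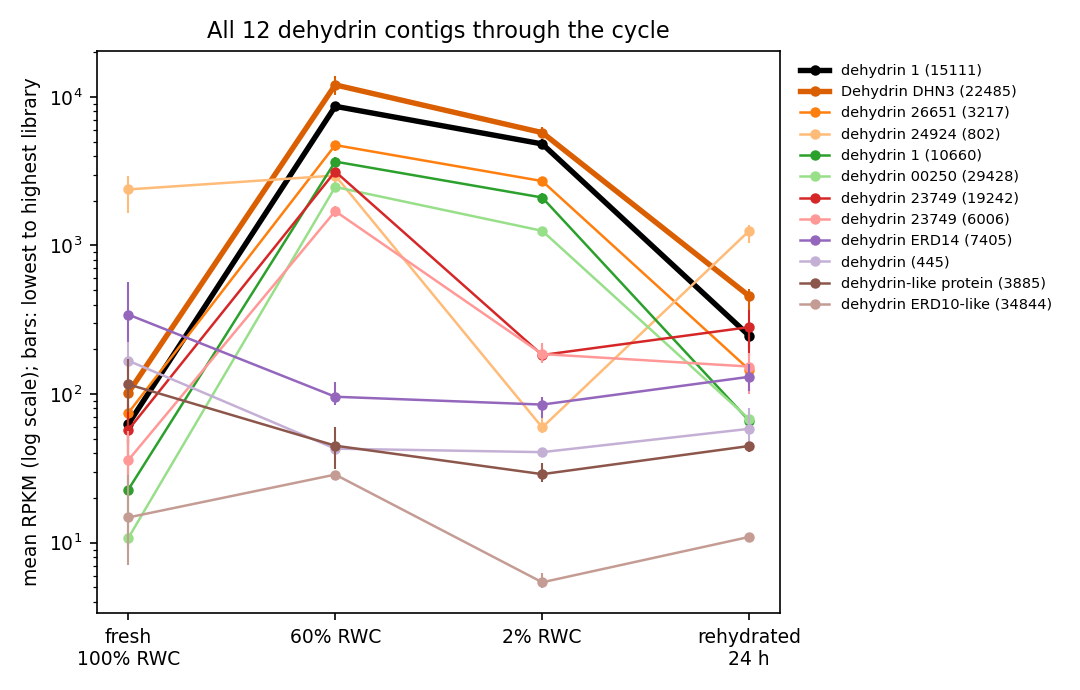
Mean RPKM of all 12 dehydrin contigs through the cycle on a log scale, with bars from the lowest to the highest of 3 libraries. Thick lines mark the pair, chosen with earlier results known, which runs above the others at 60% and 2% RWC. Dehydrin 24924 (Cp_V2_contig_802) is highest in fresh and rehydrated leaves and falls to 59.7 RPKM at 2% RWC.

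The ratio of each member of the pair to each of the other 10 dehydrins was tested across the 4 states in the same way, an addition made after the values were seen. The exact permutation p was adjusted over all 21 ratios. Dehydrin 1 and Cp_V2_contig_3217 did not move in proportion: their log2 ratio averaged -0.20 ± 0.244 in fresh leaves and 0.87 ± 0.052, 0.83 ± 0.02 and 0.75 ± 0.052 at 60% RWC, 2% RWC and after rehydration (exact p = 0.00026, adjusted p = 0.000496). Between dehydrin 1 and Cp_V2_contig_10660 no change of the ratio was detected (exact p = 0.508), but without fresh library 1 the exact p was 0.000844. For dehydrin 1 and Cp_V2_contig_29428 the exact p was 0.0156 (adjusted p = 0.0193), and 0.0508 without library 1 at 60% RWC.

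For DHN3, no change was detected in its ratio to Cp_V2_contig_29428 (exact p = 0.139) or to Cp_V2_contig_3217 (exact p = 0.0583), the second of which gave 0.00227 without fresh library 1 and 0.0473 without rehydrated library 3. Its ratio to Cp_V2_contig_10660 did change (exact p = 0.0122, adjusted p = 0.016). Against Cp_V2_contig_802, the exact p of both members was 6.49e-05, the smallest these permutations can give (adjusted p = 0.000195). The log2 ratio of dehydrin 1 to Cp_V2_contig_802 averaged -5.24 ± 0.073 in the fresh libraries, 1.55 ± 0.204 at 60% RWC, 6.34 ± 0.285 at 2% RWC and -2.35 ± 0.38 in the rehydrated ones. Against the dehydrin 23749 contigs the log2 ratio of DHN3 was 4.97 ± 0.027 and 4.96 ± 0.117 at 2% RWC and 1.93 ± 0.114 and 2.82 ± 0.083 at 60% RWC (exact p = 0.000519 and 0.00026).

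Some contigs followed the pair closely over the 12 libraries. Likeness was measured as Pearson's r of log2(RPKM + 1), among 20590 described contigs in the upper part by mean level. It serves as a description only, since all contigs share the libraries and most variation lies between the 4 states. Of contigs with the same description only the one with the highest r was given a place, and the pair itself was given none. The contig most like dehydrin 1 was Cp_V2_contig_40697, described as plant/MUD21-2 protein, with r = 0.998 and means of 8.58, 858, 620 and 34.0 RPKM through the cycle. Next came dehydrin 00250 (r = 0.996), a UDP-glycosyltransferase 74E2 (Cp_V2_contig_42243, r = 0.995), dehydrin 26651 (r = 0.994) and a cytosolic-like glyceraldehyde-3-phosphate dehydrogenase, an enzyme of glycolysis (Cp_V2_contig_19234, r = 0.994). The last averaged 7.84, 1398, 1056 and 43.0 RPKM.

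The contig most like DHN3 was another described as plant/MUD21-2 protein, Cp_V2_contig_46610, with r = 0.998 and means of 0.936, 250, 152 and 8.95 RPKM. It was followed by a calcium-binding allergen Ole e 8-like contig (Cp_V2_contig_23992, r = 0.996) and by sodium/hydrogen exchanger 4, an ion transporter (Cp_V2_contig_45899, r = 0.995). A beta-D-glucosyl crocetin beta-1,6-glucosyltransferase-like contig (Cp_V2_contig_32418, r = 0.994) came next, and the contig in the fifth place was Cp_V2_contig_38004 (r = 0.993), whose description names an enzyme of phosphatidylcholine synthesis. The dehydrins had r = 0.9898 with each other. Above 0.99 lay 9 contigs for dehydrin 1 and 14 for DHN3, so neither was the other's closest match.

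Most LEA and desiccation proteins other than dehydrins were called in the direction of the pair in the comparisons of each dried state with fresh leaves and of rehydrated with 2% RWC leaves. Of 75 tested, 59 were higher and 8 lower at 60% RWC than in fresh leaves, 59 were higher and 7 lower at 2% RWC than in fresh leaves, and 5 were higher and 56 lower after rehydration than at 2% RWC. The shares called higher and lower were 78.7% and 10.7% at 60% RWC (15.6% and 23.3% of all contigs), 78.7% and 9.3% at 2% RWC (26.0% and 34.9% of all contigs), and 6.7% and 74.7% after rehydration (31.1% and 25.4% of all contigs). The median log2 folds of this list were 5.88, 5.64 and -3.58, where those of all contigs were -0.06, -0.22 and 0.13. Between 2% and 60% RWC, where both members of the pair were lower at 2% RWC, 30 of the 75 were higher and 20 lower at 2% RWC (40% and 26.7%, where 19.5% and 25.0% of all contigs were), with a median log2 fold of 0.38. The most abundant, Cp_V2_contig_4317, had a log2 fold change of 6.68 ± 0.615 at 60% RWC against fresh leaves (adjusted p = 1.25e-05, edgeR). Cp_V2_contig_43829, described as DSP-22, had 18131 reads at 2% RWC and 3 reads in fresh leaves, summed over 3 libraries.

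Genes of ABA supply, perception and response, the route through which dehydrins are commonly induced, were called in both directions. Over all contigs 15.6% were higher and 23.3% lower at 60% RWC than in fresh leaves, and 26.0% were higher and 34.9% lower at 2% RWC. Of 30 contigs of ABA synthesis, 8 were higher (26.7%) and 1 lower (3.3%) at 60% RWC than in fresh leaves, and 5 were higher (16.7%) and 6 lower (20.0%) at 2% RWC, the last 2 shares below those of all contigs. Without fresh library 1 the number called at 60% RWC was 15, in a fit that called 15725 of 46822 contigs. At 2% RWC it was 21 without fresh library 3, where 28298 of 46911 contigs were called. It was 7 without library 2 at 2% RWC (25101 of 46993 contigs) or library 3 at 2% RWC (25218 of 47012 contigs). The number at 2% RWC was 5 when only the libraries of these states were fitted (22811 of 44267 contigs called). With limma it was 7 at either pseudocount (27754 and 27660 of 46494 contigs called with 1 and 0.1). Zeaxanthin epoxidase (Cp_V2_contig_4576), an early enzyme of the route, averaged 181 ± 17.6 RPKM at 60% RWC and 194 ± 221 RPKM in fresh leaves, and was not called. NCED1-like (Cp_V2_contig_17000), which cleaves the carotenoid precursor, averaged 6.76 ± 7.44 RPKM in fresh leaves, 15.0 ± 2.87 RPKM at 60% RWC and 0.361 ± 0.173 RPKM at 2% RWC. Against fresh leaves it was not called at 60% RWC (log2 fold change 1.16, adjusted p = 0.22, edgeR) and fell by 4.09 on the log2 scale at 2% RWC (adjusted p = 0.00323, edgeR).

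Of 93 contigs of ABA perception and signalling, 44 were higher (47.3%) and 20 lower (21.5%) at 60% RWC than in fresh leaves, and 37 were higher (39.8%) and 27 lower (29.0%) at 2% RWC. The shares called higher were above the 15.6% and 26.0% of all contigs. The shares called lower were near or below the 23.3% and 34.9% of all contigs. Probable protein phosphatase 2C 51 (Cp_V2_contig_39930), of a family with negative regulators of ABA signalling, averaged 621 ± 31.3 RPKM at 2% RWC and 2.67 ± 3.47 RPKM in fresh leaves (log2 fold change 7.97 ± 0.969, adjusted p = 3.72e-05, edgeR). At 60% RWC it stood at 7.30 ± 2.70 RPKM and was not called against fresh leaves (adjusted p = 0.153, edgeR). A PYL4-like ABA receptor (Cp_V2_contig_6998) had no read in the libraries at 2% RWC and 531 reads in the fresh libraries.

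Among 40 contigs of ABA-response transcription factors, 16 were higher (40%) and 6 lower (15.0%) at 60% RWC than in fresh leaves. Over all contigs these shares were 15.6% and 23.3%. At 2% RWC 8 of the 40 were higher (20.0%) and 12 lower (30.0%). At 2% RWC both shares lay below the 26.0% and 34.9% of all contigs. The number called was 13 in place of 20 when only the 6 libraries compared were fitted, where 22811 of 44267 contigs were called. ABSCISIC ACID-INSENSITIVE 5-like protein 2 (Cp_V2_contig_47685), a bZIP factor, had 4 reads in fresh leaves, 207 reads at 60% RWC and 387 reads at 2% RWC. ABSCISIC ACID-INSENSITIVE 5-like protein 7 (Cp_V2_contig_1294) fell by 1.05 on the log2 scale at 60% RWC against fresh leaves (adjusted p = 0.000659, edgeR). Of 13 DREB and CBF factors, which bind a dehydration-responsive element, 7 were higher (53.8%) and 2 lower (15.4%) at 60% RWC than in fresh leaves. At 2% RWC 7 were higher (53.8%) and 4 lower (30.8%). In both comparisons the share of these factors called higher was above that of all contigs, and the share called lower was below it. The most abundant (Cp_V2_contig_45146) averaged 195 ± 10.2 RPKM at 2% RWC and 12.1 ± 12.1 RPKM in fresh leaves (log2 fold change 4.30 ± 0.587, adjusted p = 8.41e-05, edgeR), and at 60% RWC it stood at 37.7 ± 1.69 RPKM. A DREB 2C-like contig (Cp_V2_contig_47680) had 931 reads at 2% RWC and 2 reads in fresh leaves. The highest means of both factors were at 2% RWC, where those of the dehydrins were below their level at 60% RWC.

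Marker lists of tissues and cells changed through the cycle in different directions. The shares of all contigs to set beside them were 15.6% higher and 23.3% lower at 60% RWC than in fresh leaves, 26.0% and 34.9% at 2% RWC than in fresh leaves, and 31.1% and 25.4% after rehydration than at 2% RWC. Of the 39 mesophyll contigs, 37 were lower and none higher at 60% and again at 2% RWC than in fresh leaves, and 36 were higher and 1 lower after rehydration than at 2% RWC. In these comparisons that is the opposite direction to dehydrin 1 and DHN3. At 2% against 60% RWC 2 were higher (5.1%) and 7 lower (17.9%), both shares below the 19.5% and 25.0% of all contigs. Of 37 epidermis contigs tested, 1 was higher (2.7%) and 18 lower (48.6%) at 60% RWC than in fresh leaves, and 8 were higher (21.6%) and 21 lower (56.8%) at 2% RWC. The 11 embryo and seed contigs took 0.00954 to 0.0135% of reads in the fresh libraries, 0.0224 to 0.0273% at 60% RWC, 0.101 to 0.112% at 2% RWC and 0.0169 to 0.0202% after rehydration, so that their highest share was at 2% RWC and not, as for the pair, at 60% RWC. In fresh leaves, and again after rehydration, 1 of them had no read. At 2% RWC against fresh leaves 7 of the 10 tested were higher (70.0%) and 2 lower (20.0%). At 60% RWC against fresh leaves 1 of 5 guard cell contigs and 1 of 10 vascular contigs tested were called, both lower and at shares (20% and 10%) below that of all contigs. With a library left out the numbers called ran between 0 and 4 (guard cell) and between 0 and 2 (vascular). Over all contigs they ran between 13305 and 21885. Guard cell contigs took at most 0.00216% of reads in any library, vascular contigs at most 0.0205%, root contigs 0.0443 to 0.0984% and epidermis contigs 0.0483 to 0.141%. The part of cell composition in the dehydrin levels was not tested.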

How the data were processed

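Per the labels' protocols, stranded libraries of total RNA from leaf pools were sequenced as 75 base paired-end reads in 5 MiSeq runs. The authors deposited read counts per contig of a species transcriptome, as total gene reads and as reads unique to a contig. The name of the aligner, of the counter and the strand setting were not given in the sources used here. Deposited RPKM values were recomputed from the counts, the contig lengths and the library totals within a relative 1.6e-08. The deposited p-value and fold columns hold the authors' analysis of variance. Samples after the longer rehydration that the protocol names are not analysed here, and the rehydrated columns were assigned to the 24 h samples from their names.

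Counts of all 12 libraries were fitted in R 4.3.3 with edgeR 4.0.16 (TMM factors 0.863 to 1.186, filterByExpr with minimum count 10 and minimum total 15, robust quasi-likelihood, a mean per state), which left 46494 contigs. Calls were two-sided and needed an adjusted p (Benjamini-Hochberg) below 0.05. The SE is the absolute log2 fold divided by the square root of F. The 95% intervals are normal intervals from this SE. They are narrower than the F test, with its few degrees of freedom, would give. Replicate pairs differed by more than counting noise (chi-square per contig at least 5.18), so none was a duplicate. The members and lists were chosen with earlier results of these data known. Words in the deposited descriptions defined each list. Beside the pair, the text names dehydrin contigs with a mean of at least 10 RPKM (at most 8). It also names the 5 contigs most like each member in log2(RPKM + 1), taking only the first contig of a description. In each list it names the most abundant contig and the called one with the largest fold at 2% against 100% RWC. Alternatives were other size factors, library totals, no filter, unique reads, a replicate block, only the states compared, limma 3.58.1 on log2(RPKM + 1) or log2(RPKM + 0.1), DESeq2 1.42.0, and each library left out. Ratios to the other dehydrins and their alternatives were added after the values were seen. The fit and the permutation code were tested on simulated data.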

Additional observations from a re-analysis of the deposited data

How the results depend on the processing

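The direction of every fold of dehydrin 1 and DHN3 held under every alternative and with each library left out, and so did all their calls except those of 2% against 60% RWC and of rehydrated against fresh leaves. For 2% against 60% RWC, DHN3 (-0.952, adjusted p = 0.05002) was called with library totals alone (-1.067), unique reads (-0.95), only the states compared (-0.917), limma with a pseudocount of 1 or 0.1 (-1.061 each) and DESeq2 (-0.911), but not with RLE size factors (adjusted p = 0.06155) or without the low-count filter (adjusted p = 0.0509), and with a library left out its fold lay between -1.061 and -0.836. That of dehydrin 1 (-0.723) lay between -0.788 and -0.64 with a library left out. With only the fresh and rehydrated libraries in the fit, dehydrin 1 (1.807) and DHN3 (1.953) were not called. The difference of the log2 ratio of the pair between 60% RWC and fresh leaves (0.131) ran between -0.255 and 0.475 with a library left out. The main fit did not pair libraries by replicate number. Over all contigs the deviations of same-numbered libraries from their state means correlated at -0.151 to 0.253. Correlations over all contigs cannot show whether the dehydrins deviate together by library number. A replicate block called DHN3 in 2% against 60% RWC (-0.938, adjusted p = 0.0468) and changed no other call of the pair.

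For 60% against 100% RWC, 18089 contigs were called, and 11766 with only the states compared. For rehydrated against fresh leaves 4373 were called, 380 with only the states compared, 7471 with DESeq2, and between 1522 and 11219 with a library left out. Of the 10 other dehydrins, 7 were called in that comparison, 1 with only the states compared, and 4 to 8 with a library left out. The cause of these changes was not tested. DHN3 had 449 to 1194 reads per fresh library and spread widely there, with a coefficient of variation of 55.2% in RPKM. Its folds against fresh leaves carry this uncertainty.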

Other observations

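In each of the 4 states the log2 ratio of dehydrin 1 to DHN3 was highest in the library numbered 3. DHN3 in that library lay below the mean of its state, by -0.47 (fresh), -0.23 (60% RWC), -0.12 (2% RWC) and -0.34 (rehydrated) on the log2 scale, while dehydrin 1 lay above it, by 0.32, 0.01, 0.10 and 0.18 in the same order. The labels give the library numbers no meaning beyond the replicate, and the pattern was noticed in the values and not tested.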
